A study of Mus musculus with 6 samples.

Results

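Glycolysis and the hypoxia response were followed through 39 genes in cultured Wnt1-YL mammary tumor cells with and without knockdown of Sca-1. The genes were listed by name and comprised 4 glucose and lactate transporters, 15 enzymes from hexokinase to lactate dehydrogenase, 4 enzymes that control glycolytic rate or pyruvate use, 4 genes of oxygen sensing and 12 hypoxia targets. Of the 39 genes, 37 had a probe set assigned to them alone, out of 18193 such genes on the array, and each was read from the probe set with the highest mean log2 intensity over all 6 arrays. Gpi1 and Eno1 were not analysed here, and Ero1l was matched to its current symbol Ero1a through its Entrez identifier. The study asked what Sca-1, a cell surface protein of the Ly6 family encoded by Ly6a, does in mammary tumor cells. Wnt1-YL is a single cell line that was raised from an invasive mammary carcinoma in an MMTV-Wnt1 animal of the FVB/n strain, in which a mammary tumor virus promoter drives Wnt1. The shSca-1 cells carried a pLKO lentiviral short hairpin RNA against Sca-1, and the shLuc cells carried a control hairpin against luciferase. Both groups had the Wnt1 transgene, were puromycin-selected after lentiviral transduction and grew in DMEM/F12 with bovine serum, insulin and EGF, and no hypoxic culture is described. RNA of 3 biological replicates per group was hybridized to Affymetrix arrays.

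Glycolysis converts glucose to pyruvate, and lactate dehydrogenase then reduces pyruvate to lactate, which leaves the cell through monocarboxylate transporters. When oxygen is sufficient, the prolyl hydroxylases Egln1 and Egln3 mark Hif1a protein for degradation. When oxygen falls, Hif1a protein accumulates and switches on most glycolytic enzymes together with genes of angiogenesis, mitophagy and collagen modification. Hif1a is controlled mainly at the protein level, which arrays do not measure.

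Hypoxia-inducible factor binds DNA at a short core, ACGTG or GCGTG, so the 250 bases before the transcription start were read from RefSeq (build GRCm38.p6) for the 32 members with an entry. Both strands were searched, on which the cores read CACGT and CACGC as well, and the E-box CACGTG holds an ACGTG core on each strand. ACGTG stood in the windows of 19 of 32 members (59.4%), against 16.6% of 27025 genes, and GCGTG in 16 of 32 (50.0%), against 28.2%. At least 1 of the cores was found in 26 of 32 members (81.2%), against 38.6% of all genes, and CACGTG in 6 (18.8%), against 6.0%. The members' windows had a median GC content of 62.8%, against 52.0% over all genes. A match is a run of letters and not a binding site. Sequences of 10 members are shown, with capitals marking the cores on either strand. Aldoc, Ldha, Pgk1, Tpi1, Aldoa, Pgam1 and Slc2a1 are the members given in full by the rule for named genes that have an entry, which Bhlhe40 lacks, and Bnip3, Ankrd37 and Egln3 were chosen after their values were seen. Aldoc, Ldha and Aldoa have more than 1 entry, of which the first is shown.
Aldoc, chr11:78322823-78323072, strand plus: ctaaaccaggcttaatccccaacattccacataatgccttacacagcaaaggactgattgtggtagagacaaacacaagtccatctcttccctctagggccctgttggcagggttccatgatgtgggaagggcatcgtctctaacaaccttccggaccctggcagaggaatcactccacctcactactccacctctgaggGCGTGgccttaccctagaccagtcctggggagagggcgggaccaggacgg
Ldha, chr7:46845554-46845803, strand plus: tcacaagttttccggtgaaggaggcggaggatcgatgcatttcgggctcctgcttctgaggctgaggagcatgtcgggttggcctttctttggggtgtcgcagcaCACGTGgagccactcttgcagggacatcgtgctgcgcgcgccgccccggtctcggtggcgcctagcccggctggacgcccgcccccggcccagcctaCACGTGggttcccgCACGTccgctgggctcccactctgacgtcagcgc
Pgk1, chrX:106186850-106187099, strand plus: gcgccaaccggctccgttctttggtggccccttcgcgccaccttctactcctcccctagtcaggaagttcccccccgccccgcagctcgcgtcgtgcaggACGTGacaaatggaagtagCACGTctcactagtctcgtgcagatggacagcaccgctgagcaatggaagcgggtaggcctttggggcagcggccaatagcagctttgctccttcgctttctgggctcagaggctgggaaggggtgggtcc
Tpi1, chr6:124814159-124814408, strand minus: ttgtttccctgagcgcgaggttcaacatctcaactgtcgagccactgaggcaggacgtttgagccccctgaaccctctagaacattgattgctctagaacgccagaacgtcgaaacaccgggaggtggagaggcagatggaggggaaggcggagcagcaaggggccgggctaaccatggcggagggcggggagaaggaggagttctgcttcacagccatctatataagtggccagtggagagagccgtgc
Aldoa, chr7:126800448-126800697, strand minus: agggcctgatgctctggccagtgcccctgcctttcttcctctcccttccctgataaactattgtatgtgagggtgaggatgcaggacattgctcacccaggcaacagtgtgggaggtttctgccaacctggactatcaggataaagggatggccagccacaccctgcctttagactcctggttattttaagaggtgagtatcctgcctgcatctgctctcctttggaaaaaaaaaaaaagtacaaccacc
Pgam1, chr19:41911621-41911870, strand plus: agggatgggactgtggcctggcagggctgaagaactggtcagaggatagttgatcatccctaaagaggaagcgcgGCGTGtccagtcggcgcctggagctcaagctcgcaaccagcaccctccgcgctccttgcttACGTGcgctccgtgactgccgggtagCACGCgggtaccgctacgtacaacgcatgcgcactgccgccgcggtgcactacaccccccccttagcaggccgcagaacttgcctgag
Slc2a1, chr4:119108495-119108744, strand plus: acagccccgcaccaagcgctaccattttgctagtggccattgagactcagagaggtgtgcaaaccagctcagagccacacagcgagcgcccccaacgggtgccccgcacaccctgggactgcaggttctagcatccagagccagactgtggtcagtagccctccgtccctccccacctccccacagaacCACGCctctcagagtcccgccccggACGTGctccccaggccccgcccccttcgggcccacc
Bnip3, chr7:138909507-138909756, strand minus: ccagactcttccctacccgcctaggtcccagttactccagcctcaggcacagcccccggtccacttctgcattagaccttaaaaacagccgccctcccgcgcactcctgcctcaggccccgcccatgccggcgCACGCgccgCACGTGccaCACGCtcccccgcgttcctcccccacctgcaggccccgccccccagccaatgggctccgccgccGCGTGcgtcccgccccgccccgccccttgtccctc
Ankrd37, chr8:45999851-46000100, strand minus: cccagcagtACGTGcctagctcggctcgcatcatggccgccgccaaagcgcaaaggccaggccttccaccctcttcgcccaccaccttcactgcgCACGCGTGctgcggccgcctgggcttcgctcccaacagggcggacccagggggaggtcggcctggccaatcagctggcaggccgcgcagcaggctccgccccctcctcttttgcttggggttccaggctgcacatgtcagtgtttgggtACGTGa
Egln3, chr12:54203875-54204124, strand minus: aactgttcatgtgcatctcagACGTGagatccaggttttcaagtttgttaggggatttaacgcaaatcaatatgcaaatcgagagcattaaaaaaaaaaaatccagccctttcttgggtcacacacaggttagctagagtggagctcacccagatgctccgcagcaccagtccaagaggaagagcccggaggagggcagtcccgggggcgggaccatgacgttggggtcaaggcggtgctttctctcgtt

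The Ldha window held 2 CACGTG boxes and a further ACGTG core, and the Pgk1 window held ACGTG on each strand. The Bnip3 window had 1 CACGTG box and 3 GCGTG cores, and the Ankrd37 window 2 ACGTG and 2 GCGTG cores. Slc2a1 had 1 of each core, Pgam1 had 1 ACGTG and 2 GCGTG, and Tpi1 and Aldoa had 0 of either. Egln3 had a single ACGTG, 229 bases before the start, and Aldoc a single GCGTG, 50 bases before it. Whether the cores have a part in the differences between arrays or groups was not tested.

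The values are linear intensities in arbitrary units, with array medians of 37.3 to 38.4 in shSca-1 cells and 38.2 to 40.6 in shLuc cells. Ly6a, the target of the hairpin, read 285, 314 and 306 in shSca-1 cells, against 7646, 7362 and 2843 in shLuc replicates 1, 2 and 3. Its log2 fold change was -4.17 (SE 0.36, limma adjusted p = 0.051) over all 6 arrays and -4.64 (SE 0.08, limma adjusted p = 5.2e-07) without shLuc replicate 3. The array labelled shLuc replicate 3 stood apart from the others, with a best correlation of 0.924 with any other array, against at least 0.957 for the rest. Its 6 luminal epithelial markers summed to 16571, against 270.1 to 293 in shSca-1 cells and 224 to 275 in the other shLuc arrays. Its 5 basal markers summed to 18089, against 29126 to 31979 in shSca-1 cells and 33257 to 33284 in the other shLuc arrays. The leukocyte sum was 149 to 308 in shSca-1 cells, against 365 to 371 in shLuc replicates 1 and 2 and 108 in shLuc replicate 3, an order that several members share. It was carried by Cd68, a lysosomal protein of macrophages, which read 53.9, 77.6 and 212 in shSca-1 cells, against 311, 298 and 32.9 in shLuc cells. Lyz2 went the other way, at 57.5, 65.5 and 61.6 in shSca-1 cells, against 46.4, 47.4 and 42.4 in shLuc cells. Ptprc, Itgam and Cd3e were under 64 on all arrays, and Ptprc was higher on all shSca-1 arrays than on any shLuc array. Endothelial and adipocyte sums were at most 121 on every array. The fibroblast sum was 388 to 409 in shSca-1 cells, against 163 to 199 in shLuc replicates 1 and 2 and 358 in shLuc replicate 3. Its genes did not share 1 order. Pdgfrb read 157, 169.6 and 3.26 and Pdgfra 96.2, 108 and 292 in shSca-1 replicates 1, 2 and 3. Col1a1, Col3a1 and Dcn were under 64 on all arrays, and Col1a2 had a negative log2 fold change over 6 arrays, -0.64. What part these differences have in the values of the glycolysis and hypoxia genes was not tested, and in bulk RNA fewer cells of a type and less RNA per cell cannot be told apart. Counts and fold changes are therefore given both over all 6 arrays and without shLuc replicate 3.

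No member passed an adjusted p of 0.05 over all 6 arrays (limma, Benjamini-Hochberg over all probe sets), as was the case for all 18193 genes (0%), and the methods' t-test also called 0 members after adjustment. At an unadjusted p under 0.05, 0 members were higher in shSca-1 cells (background 3.57%) and 2 were lower, Aldoc and Pdk2 (5.41% of members, background 7.05%). At the thresholds of the study, an unadjusted p under 0.01 with a fold over 1.5, 0 members were higher (background 0.528%) and 1 was lower, Aldoc (2.70%, background 1.52%). Aldoc did not pass them by the methods' t-test, which called 0 members, nor with intensities under 16 or 64 raised to that floor, with no trend in the variance, with the mean of its probe sets, or when any 1 of shSca-1 replicates 1 and 2 and shLuc replicates 1 and 2 was left out. These shares of the members lie near those of all genes. The intensities of the groups did not overlap for 4 members that were higher in shSca-1 cells, Tpi1, Pgk1, Pgam1 and Ldha (10.8%, background 7.18%), and for 4 that were lower, Pfkm, Aldoc, Slc16a3 and Pdk2 (10.8%, background 11.5%). With 3 arrays against 3, an exact two-sided permutation test of a single gene cannot give a p below 0.1. Nothing in the sources says that the replicates came from separate transductions, so p-values measure only the spread between these arrays, which may be technical.

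Without shLuc replicate 3, Bhlhe40 alone passed the adjusted threshold, and it was lower in shSca-1 cells (1 member lower, 2.70%, background 2.73%, and 0 higher, background 1.17%). At an unadjusted p under 0.01 with a fold over 1.5, Aldoc, Ndrg1 and Ankrd37 were lower (3 members, 8.11%, background 2.91%) and none was higher (background 1.08%). At an unadjusted p under 0.05, 13 members were lower (35.1%, background 12.5%) and 1 was higher, Pgk1 (2.70%, background 7.22%). These shares were not matched for intensity, and 13.5% of members were under 64 on all arrays, against 39.5% of all genes. The limma unadjusted p of Pgk1 without shLuc replicate 3 was 0.34 with quantile normalization and 0.022 with arrays centred. The log2 fold change was negative for 29 of 37 members (78.4%, against 54.6% of all genes), with a median of -0.25 over the members and -0.04 over all genes. Over all 6 arrays it was negative for 15 of 37 (40.5%, against 54.6%), with a median of 0.10, against -0.04. The sign of 14 members turned with this array. Without it, the log2 fold change was negative for 28 members with arrays centred on their medians (49.3% of all genes) and for 27 with quantile normalization (47.8% of all genes).

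**Figure D1:**
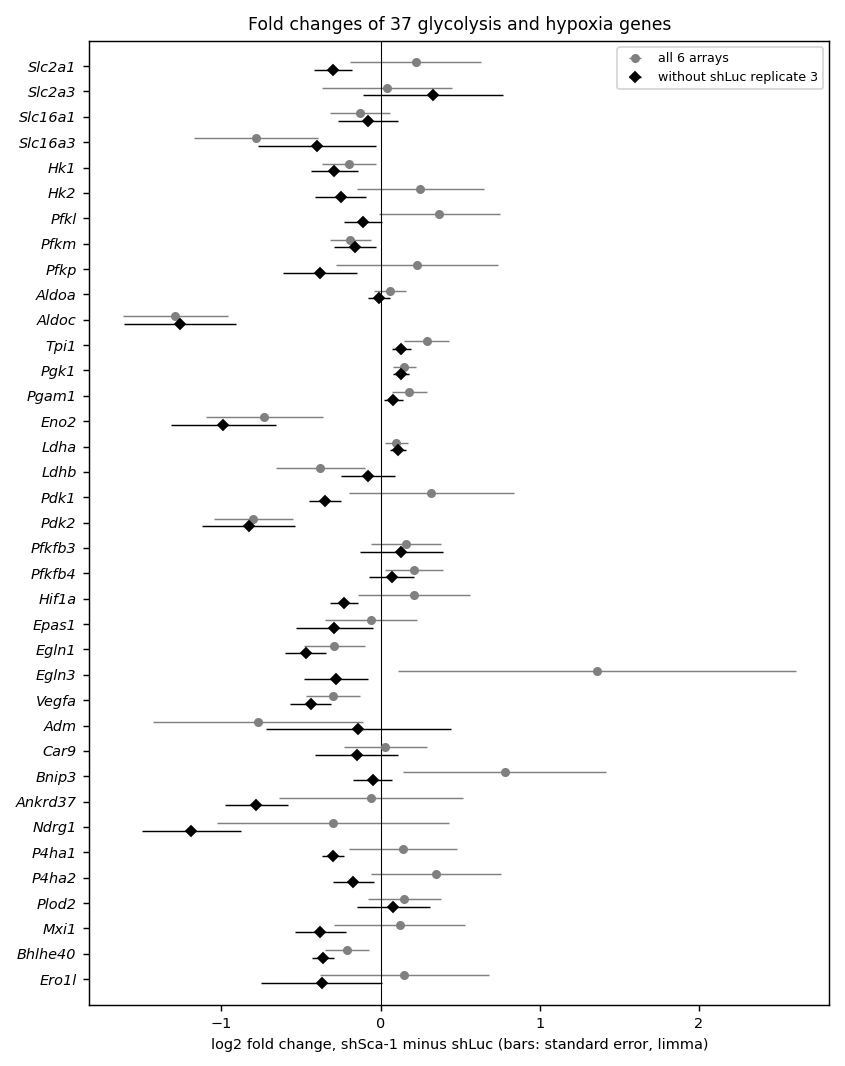
Fold changes of the 37 genes on the log2 scale, shSca-1 minus shLuc, with limma's standard errors as bars, over all 6 arrays (grey circles) and without shLuc replicate 3 (black diamonds). Egln3 lies at 1.36 with the array and -0.28 without it, Bnip3 at 0.78 and -0.05, and Aldoc at -1.29 and -1.26.

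Among the transporters, Slc2a1 (Glut1), which carries glucose into most proliferating cells, read 5178, 5091 and 6777 in shSca-1 cells, against 6993, 6851 and 2374 in shLuc cells. Its level was lowest on shLuc replicate 3, 2.92-fold under the other shLuc arrays, and without that array all 3 shSca-1 arrays lay below both shLuc arrays. The log2 fold change was 0.22 (SE 0.41, limma adjusted p = 0.90) over 6 arrays and -0.30 (SE 0.12, limma adjusted p = 0.28) without it, and the 3 probe sets of the gene gave the same signs. Slc16a1 (Mct1), a lactate and pyruvate carrier, read 1316, 1352 and 2096 in shSca-1 cells and 1687, 1597 and 1817 in shLuc cells, so the groups overlapped. Slc2a3 (Glut3) and Slc16a3 (Mct4), the lactate exporter of strongly glycolytic cells, were under 64 on all arrays, and below the array medians apart from Slc16a3 on shLuc replicate 3. For Slc2a3, whose 4 probe sets disagreed in sign, no direction is given. Slc16a3 was 13.99 to 15.2 in shSca-1 cells, against 18.1, 20.4 and 41.6 in shLuc cells.

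The glycolytic enzymes with the brightest probe sets differed little between the groups. Ldha, which makes lactate from pyruvate, read 10352, 10163 and 10146 in shSca-1 cells, against 9549.7, 9412 and 9549 in shLuc cells. Every shSca-1 array lay above every shLuc array, and shLuc replicate 3 lay within the other shLuc arrays, but the log2 fold change was 0.10 (SE 0.07, limma adjusted p = 0.69) and 0.11 without that array. Pgk1, the first enzyme of the pathway to make ATP, read 9448, 9457 and 9728 in shSca-1 cells, against 8797, 8655 and 8324 in shLuc cells. These groups did not overlap either, with a log2 fold change of 0.15 (SE 0.07, limma adjusted p = 0.59) and 0.13 without shLuc replicate 3. Tpi1, the triose phosphate isomerase, read 9267, 9387 and 9851 in shSca-1 cells, against 8792, 8580.4 and 6277 in shLuc cells. Here shLuc replicate 3 was lower than the rest, and the log2 fold change of 0.29 (SE 0.14, limma adjusted p = 0.60) became 0.13 without it. The 3 probe sets of Tpi1 lay between -0.01 and 0.17 without that array, and the dimmest of them overlapped between the groups. Pgam1, a phosphoglycerate mutase, read 6592, 6643 and 6975 in shSca-1 cells, against 6444, 6289.8 and 5131 in shLuc cells, a log2 fold change of 0.18 (SE 0.11, limma adjusted p = 0.66) and 0.08 without shLuc replicate 3. Aldoa, the aldolase of most tissues, read 6207, 6845 and 7207 in shSca-1 cells, against 6775, 6819 and 5809 in shLuc cells, and these groups overlapped. Its 5 probe sets gave log2 fold changes between -0.05 and 0.06, and between -0.18 and -0.01 without shLuc replicate 3. The small differences of the other 4 enzymes depended on the scaling. Without shLuc replicate 3, quantile normalization gave 0.03 for Ldha, 0.05 for Pgk1 and Tpi1 and 0.01 for Pgam1. Centring the arrays instead gave 0.15 for Ldha, 0.17 for Pgk1 and Tpi1 and 0.12 for Pgam1.

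Aldoc, the aldolase best known from brain, was the member with the largest decrease. It read 129, 165 and 333 in shSca-1 cells, against 418, 509 and 485 in shLuc cells. All shSca-1 arrays lay below all shLuc arrays, and shLuc replicate 3 was within the range of the others. The log2 fold change was -1.29 (SE 0.33, limma adjusted p = 0.32) over 6 arrays, a fold of 2.44, and -1.26 (SE 0.35, limma adjusted p = 0.11) without that array. A dimmer probe set of Aldoc gave -0.30 and -0.28, in the same direction. shSca-1 replicate 3 was 2.28 times the mean of the other shSca-1 arrays.

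Pfkp, Pfkl and Pfkm encode the platelet, liver and muscle subunits of phosphofructokinase, the committing enzyme of the pathway, and they did not follow the same pattern. Pfkp read 863, 962 and 1614 in shSca-1 cells, against 1489, 1384 and 402 in shLuc cells, and Pfkl was likewise lowest on shLuc replicate 3, at 722 against 1569 to 2063 on the other 5 arrays. Pfkm, in contrast, had its highest value there, 239.6, with 179 to 218 in shSca-1 cells and 225 in both other shLuc arrays. A dim probe set of Pfkl was not lowest on shLuc replicate 3, at 51.2 against 48.8 on shLuc replicate 2. Without shLuc replicate 3 it gave a log2 fold change of 0.30, against -0.11 at the Pfkl probe set used. Of the hexokinases, which trap glucose in the cell, Hk2 read 740.5, 758 and 1075 in shSca-1 cells, against 1028, 977 and 359 in shLuc cells, whereas Hk1 overlapped, at 939 to 1383 in shSca-1 cells and 1106 to 1384 in shLuc cells. Ldhb, the subunit that favors pyruvate formation, was the reverse of most members, with its highest value of 557 on shLuc replicate 3 and 229.7 to 335 on the other arrays. Eno2, the neuronal enolase, was dim, at 58.1, 30.8 and 65.5 in shSca-1 cells and 108, 87.8 and 56.5 in shLuc cells. Over the 13 enzymes measured, 9 had a negative log2 fold change without shLuc replicate 3 (median -0.11, and 8 negative with either scaling, where Aldoa or Ldhb turned), and 5 over all 6 arrays (median 0.10).

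**Figure D2:**
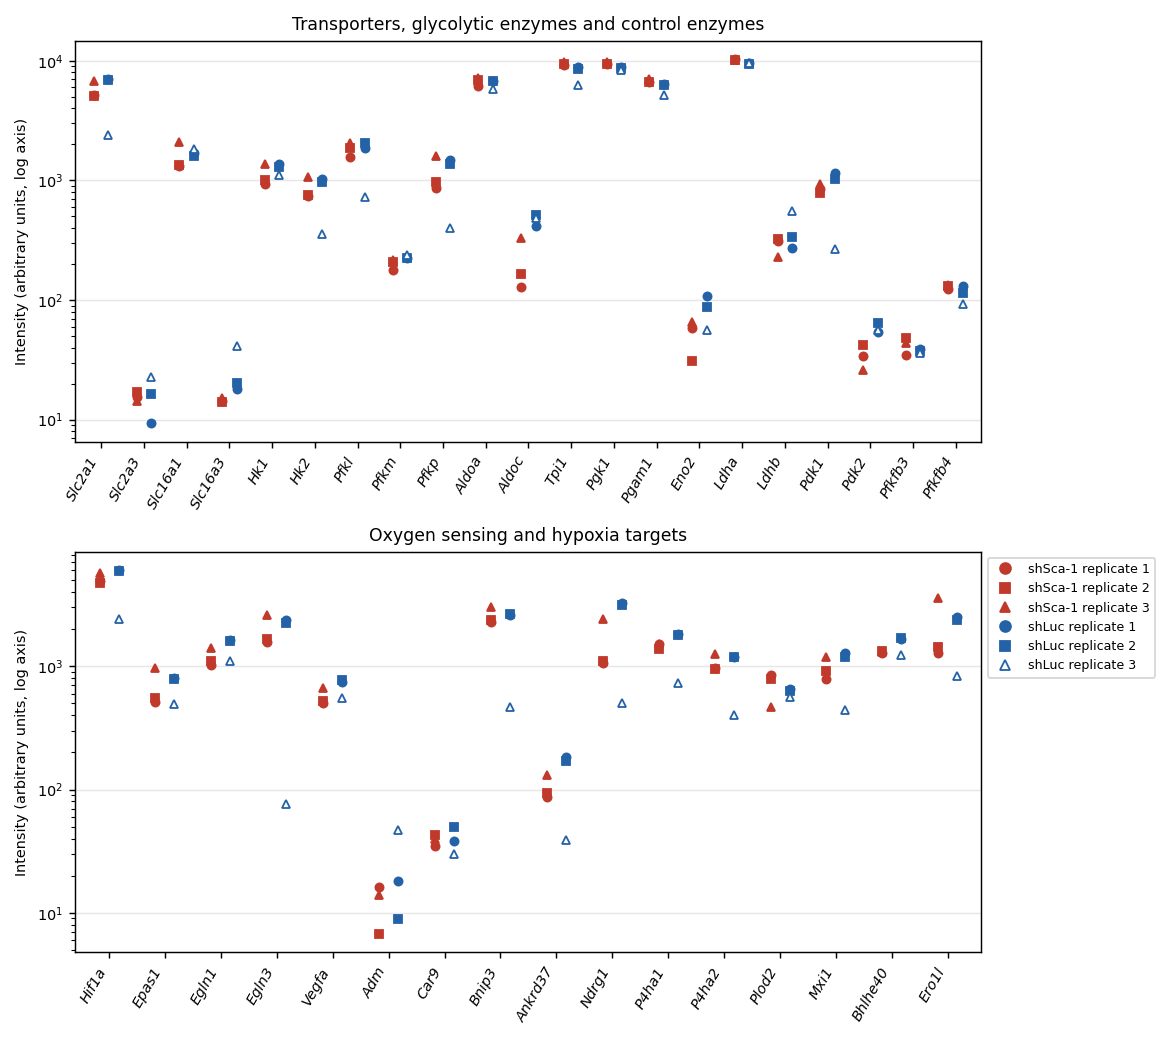
Intensity (arbitrary units, log axis) of the 37 genes on each array, shSca-1 in red and shLuc in blue, one marker shape per replicate and shLuc replicate 3 as an open triangle, with no means or error bars. Ldha, Pgk1 and Aldoa lie close together across arrays, whereas the open triangle falls to 75.6 for Egln3 and 465 for Bnip3.

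Of the control enzymes, Pdk1, a kinase that limits the use of pyruvate by mitochondria, read 853, 780.0 and 939 in shSca-1 cells, against 1154, 1033 and 269 in shLuc cells. Without shLuc replicate 3 the groups did not overlap and the log2 fold change was -0.35 (SE 0.10, limma adjusted p = 0.12). Over all 6 arrays it was 0.32 (SE 0.52, limma adjusted p = 0.88), with 4 probe sets that disagreed in sign. Without shLuc replicate 3, dimmer probe sets of Pdk1 gave -0.25 and -0.34 with groups that overlapped, and another gave -0.44 with separate groups. Its paralog Pdk2 was dim, at 34.2, 41.95 and 25.9 in shSca-1 cells, against 54.4, 64.3 and 56.2 in shLuc cells. The groups did not overlap, and the log2 fold change was -0.80 (SE 0.25, limma adjusted p = 0.41), and -0.83 without shLuc replicate 3. With intensities under 64 raised to 64 it was 0.00 in both cases. Pfkfb3 and Pfkfb4, which set the level of an allosteric activator of phosphofructokinase, differed little, at 35.03 to 48.5 and 123 to 133 in shSca-1 cells, against 36.02 to 39.05 and 92.6 to 132 in shLuc cells.

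Of the oxygen sensing genes, Egln3 had the largest log2 fold change over all 6 arrays, but not without shLuc replicate 3. This prolyl hydroxylase is itself induced in hypoxia. It read 1576, 1655 and 2599 in shSca-1 cells, against 2358, 2241 and 75.6 in shLuc cells. On shLuc replicate 3 it was 30.4-fold under the mean of the other shLuc arrays, while the remaining arrays overlapped between the groups. Its log2 fold change was 1.36 (SE 1.25, limma adjusted p = 0.78) over 6 arrays and -0.28 (SE 0.20, limma adjusted p = 0.55) without that array, and the other probe set gave 1.60 and -0.20. Hif1a, the oxygen-regulated subunit of the factor, read 4927, 4737 and 5715 in shSca-1 cells, against 6072, 5925 and 2398 in shLuc cells. Leaving out shLuc replicate 3, all shSca-1 arrays lay below the shLuc arrays, with a log2 fold change of -0.23 (SE 0.09, limma adjusted p = 0.24). Over all 6 arrays it was 0.21 (SE 0.35, limma adjusted p = 0.88). The 4 probe sets of Hif1a lay between -0.37 and -0.07 without shLuc replicate 3, and the groups overlapped at all except the brightest. Egln1, the main hydroxylase of normal oxygen, read 1027, 1095 and 1408 in shSca-1 cells, against 1632, 1594 and 1113 in shLuc cells. Its log2 fold change was -0.29 (SE 0.19, limma adjusted p = 0.69) and -0.47 (SE 0.13, limma adjusted p = 0.11) without shLuc replicate 3, but its other probe set gave 0.14 and 0.03. Epas1 (Hif2a) overlapped, at 511 to 966 in shSca-1 cells and 492 to 799 in shLuc cells, and its probe sets gave -0.29 and 0.12 without shLuc replicate 3. At the probe sets used, all 4 genes had a negative log2 fold change without shLuc replicate 3 (median -0.29), and 2 over all 6 arrays (median 0.07).

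Of the 12 hypoxia targets, Bhlhe40, a transcriptional repressor of the clock, was the single member that fell at an adjusted p under 0.05 without shLuc replicate 3. It read 1281, 1331 and 1315 in shSca-1 cells, against 1666, 1698 and 1229 in shLuc cells. The shSca-1 arrays lay within a narrow range below shLuc replicates 1 and 2 but above shLuc replicate 3. Its log2 fold change was -0.36 (SE 0.07, limma adjusted p = 0.034) without that array and -0.21 (SE 0.14, limma adjusted p = 0.70) with it, so this call rests on leaving it out. With intensities under 64 also raised to 64, the fold change was again -0.36 but 0 members passed the adjusted threshold.

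The other targets are described by values chosen after they were seen. Ndrg1, a stress-induced gene of differentiation, read 1057, 1113 and 2397 in shSca-1 cells, against 3264, 3167 and 508 in shLuc cells. The shLuc arrays held both the highest values and the lowest. Without shLuc replicate 3 its log2 fold change was -1.19 (SE 0.31, limma adjusted p = 0.10), and the 5 probe sets lay between -1.31 and -1.19. Over all 6 arrays it was -0.30 (SE 0.73, limma adjusted p = 0.93). Ankrd37, a small ankyrin repeat protein, read 86.8, 93.9 and 131 in shSca-1 cells, against 183, 169.8 and 38.97 in shLuc cells, and had the same arrangement of arrays. Its log2 fold change was -0.78 (SE 0.20, limma adjusted p = 0.091) without shLuc replicate 3 and -0.06 (SE 0.58, limma adjusted p = 0.98) with it.

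Bnip3, a mitophagy receptor, read 2275, 2387 and 3043 in shSca-1 cells, against 2609.9, 2674 and 465 in shLuc cells. It differed from Ndrg1 in that the groups were alike apart from shLuc replicate 3, with a log2 fold change of -0.05 (SE 0.12, limma adjusted p = 0.89) without that array and 0.78 (SE 0.64, limma adjusted p = 0.76) with it. The collagen prolyl hydroxylase subunit P4ha1 read 1503, 1386 and 1519.5 in shSca-1 cells, against 1820.3, 1793 and 725 in shLuc cells. Without shLuc replicate 3 it did not overlap, at a log2 fold change of -0.30 (SE 0.07, limma adjusted p = 0.08), against 0.14 (SE 0.34, limma adjusted p = 0.93) over all 6 arrays. A dimmer probe set of P4ha1 overlapped between the groups, with -0.05 without shLuc replicate 3 and 0.42 over all 6 arrays. P4ha2 overlapped, at 951 to 1259 in shSca-1 cells, against 1184, 1181 and 400.3 in shLuc cells. Plod2, a lysyl hydroxylase of collagen, was the single target with a positive log2 fold change without shLuc replicate 3, 0.08 (SE 0.23, and 0.15 over all 6 arrays), and was lowest on shSca-1 replicate 3, at 468.

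Vegfa, the endothelial growth factor, read 500.5, 521 and 664 in shSca-1 cells, against 748, 768 and 557 in shLuc cells, a log2 fold change of -0.30 (SE 0.17, limma adjusted p = 0.66) and -0.44 (SE 0.13, limma adjusted p = 0.13) without shLuc replicate 3. Mxi1, an antagonist of Myc, read 791, 912 and 1185 in shSca-1 cells, against 1289.8, 1185 and 439.7 in shLuc cells. Ero1l, an oxidase of the endoplasmic reticulum, read 1292, 1444 and 3611 in shSca-1 cells, against 2503, 2387 and 830.3 in shLuc cells, so its highest value was in the shSca-1 group. Adm and Car9, the peptide adrenomedullin and a carbonic anhydrase often used as a marker of hypoxic tumor, were under 64 on all arrays. Over the 12 targets, 11 had a negative log2 fold change without shLuc replicate 3 (median -0.33, and 10 negative with quantile normalization, where Bnip3 was at 0.00), and 5 over all 6 arrays (median 0.07).

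Many members spread widely between replicates of a group. shLuc replicate 3 had the lowest of the 6 values for 22 of 37 members (59.5%, against 24.2% of all genes) and the highest for 5 (13.5%, against 29.3%). For 10 members it was under 0.5 times every other array (27.0%, against 3.71% of all genes), namely Hk2, Pfkl, Pfkp, Slc2a1, Pdk1, Egln3, Bnip3, Ankrd37, Ndrg1 and P4ha2. shSca-1 replicate 3 had the highest of the 3 shSca-1 values for 28 of 37 members (75.7%, against 42.1%), while replicates 1 and 2 had it for 3 and 6 (8.11% and 16.2%, against 19.8% and 37.8%). In that array Ero1l was 2.64 times, Aldoc 2.28 times, Ndrg1 2.21 times and Epas1 1.81 times the mean of the other shSca-1 arrays. The same counts were taken over the members and genes whose geometric mean intensity was above 100. There, shLuc replicate 3 was lowest for 21 of 30 members (70.0%, against 32.1%) and shSca-1 replicate 3 highest of its group for 26 (86.7%, against 50.6%). The median deviation of the members from each gene's mean was -0.09, -0.01 and 0.15 on the log2 scale in shSca-1 cells, against 0.27, 0.32 and -0.30 in shLuc cells. These arrays also differed in the marker sums given above, although the 5 basal markers did not share 1 order. The transcription factor Trp63 read 1531, 1464 and 2898 in shSca-1 cells, against 2950.2, 2869.7 and 939 in shLuc cells. The actin Acta2 read 6193, 6090.0 and 4629.8 in shSca-1 cells, against 9056, 8603 and 4776 in shLuc cells, and was thus lowest of its group on shSca-1 replicate 3. The keratins Krt5 and Krt14 were higher on all shSca-1 arrays than on any shLuc array, and Krt17 was lower. The part of these markers in the differences was not tested.

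**Figure D3:**
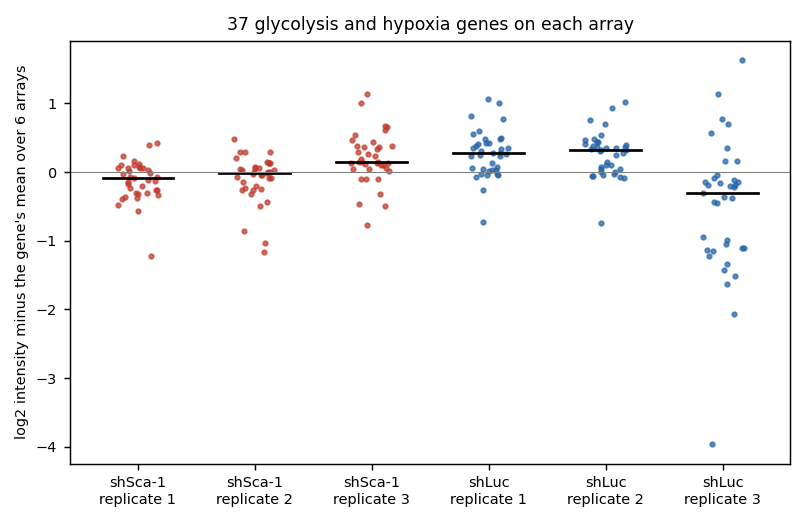
Deviation of each of the 37 genes from its own mean over the 6 arrays (log2 scale, 1 point per gene, black line for the median), shSca-1 arrays in red and shLuc arrays in blue. The medians are -0.09, -0.01 and 0.15 on the shSca-1 arrays and 0.27, 0.32 and -0.30 on the shLuc arrays.

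Genes around the pathway were taken from 8 further lists. Of 18 other glycolytic enzymes and isozymes and of 19 further genes of the oxygen-sensing machinery, 0 passed either of the 2 rules, the study's thresholds over 6 arrays (background 0.528% higher and 1.52% lower) or an adjusted p under 0.05 without shLuc replicate 3 (background 1.17% higher and 2.73% lower). Of the 7 genes of the glucose-sensing MondoA and ChREBP axis, 2 passed both rules as lower, and the median log2 fold change without shLuc replicate 3 was -0.46. Txnip, a glucose-induced arrestin that restrains glucose uptake, fell to 245, 268 and 599.6 in shSca-1 cells, against 2589.5, 2614 and 816 in shLuc cells. All shSca-1 arrays lay below all shLuc arrays. Its log2 fold change was -2.38 (SE 0.53, limma adjusted p = 0.26) over 6 arrays and -2.93 (SE 0.34, limma adjusted p = 0.0089) without shLuc replicate 3, and the other probe set gave -2.74 and -3.37. Over 6 arrays, Txnip did not pass the thresholds of the study with robust variance, with a floor of 16 or 64, with the methods' t-test, or when any 1 of shSca-1 replicates 1 and 2 and shLuc replicates 1 and 2 was left out. Arrdc4, a related arrestin also driven by glucose, fell to 94.2, 129.6 and 141 in shSca-1 cells, against 348, 305 and 461 in shLuc cells. Here shLuc replicate 3 was the highest. The log2 fold change was -1.61 (SE 0.22, limma adjusted p = 0.10), and -1.44 (SE 0.19, limma adjusted p = 0.012) without it. That Arrdc4 is among the genes the study lists was known when the list was written.

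Of 19 other glucose and monocarboxylate transporters and their partners, 1 passed, Emb (embigin), an accessory chain of monocarboxylate transporters. It fell to 618, 727 and 731 in shSca-1 cells, against 1972, 1869 and 2575 in shLuc cells. The log2 fold change was -1.62 (SE 0.15, limma adjusted p = 0.051), and -1.48 (SE 0.10, limma adjusted p = 0.0013) without shLuc replicate 3. Of 11 pentose phosphate genes, 1 was higher and 2 were lower without that array. Pgd, a dehydrogenase that makes NADPH, rose to 2481, 2469.9 and 2396 in shSca-1 cells, against 1579, 1674 and 1869.9 in shLuc cells (log2 fold change 0.52, and 0.59 with limma adjusted p = 0.0084 without shLuc replicate 3). Pgls, the lactonase of the step before it, had log2 fold changes of -0.62 over 6 arrays and -0.62 without shLuc replicate 3, and Rpia, the ribose isomerase, of -1.10 and -0.77. Both groups of arrays were separate for each of these 3 genes. Pgls and Rpia also passed the thresholds of the study over 6 arrays. Rpia did not pass them with a floor of 16 or 64, with the methods' t-test or with no trend in the variance. It was highest on shLuc replicate 3, at 1372, against 729.6 and 661 on shLuc replicates 1 and 2. Pgls fell below the fold threshold with arrays centred (-0.56) or quantile normalized (-0.57).

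Of 11 genes of pyruvate entry, Mpc1, a subunit of the mitochondrial pyruvate carrier, was higher, at 1750.1, 1801 and 1577 in shSca-1 cells, against 1257, 1207 and 1083 in shLuc cells (log2 fold change 0.53, and 0.47 with limma adjusted p = 0.028 without shLuc replicate 3). Of 18 glycogen and gluconeogenesis genes, Pygb, the brain glycogen phosphorylase, and Pck2, the mitochondrial phosphoenolpyruvate carboxykinase, were lower without shLuc replicate 3, with log2 fold changes of -0.69 and -1.20, against -0.56 and -0.76 over all 6 arrays, where Pck2 overlapped between the groups. Of 38 other hypoxia targets, 1 was higher and 1 was lower. Tfrc, the transferrin receptor, read 3373, 3384 and 2595 in shSca-1 cells, against 646, 607 and 3144 in shLuc cells. Its value on shLuc replicate 3 was that of the shSca-1 arrays, so the log2 fold change of 2.30 (SE 0.12, limma adjusted p = 8.0e-04) without that array was 1.53 (SE 0.60, limma adjusted p = 0.51) with it. Insig2, a regulator of sterol synthesis, had a log2 fold change of -0.83 (limma adjusted p = 0.041) without shLuc replicate 3 and -0.55 with it.

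**Figure D4:**
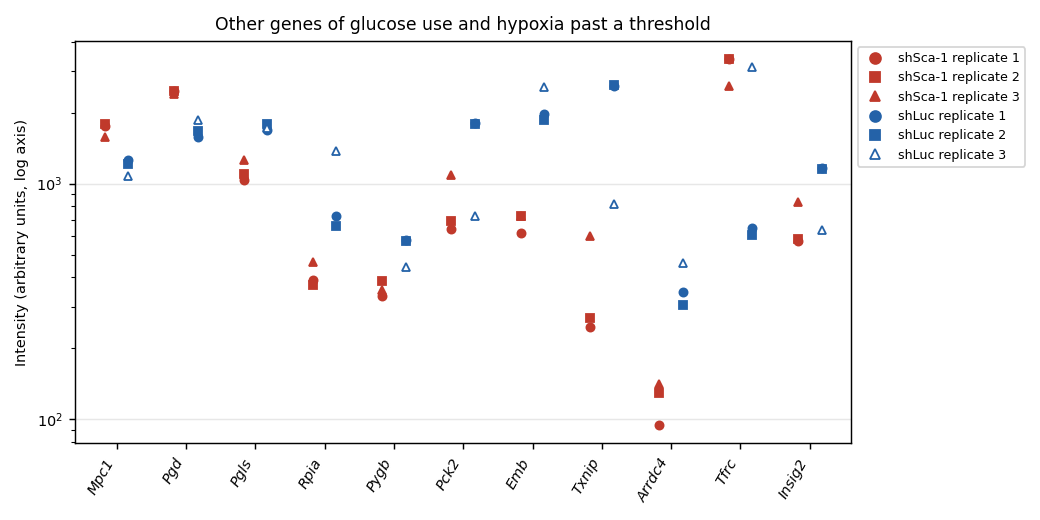
Intensity (arbitrary units, log axis) on each array of the 11 genes of the further lists that passed either rule, shSca-1 in red and shLuc in blue, with shLuc replicate 3 as an open triangle and no means or error bars. Txnip, Arrdc4 and Emb are lower on all shSca-1 arrays, and for Tfrc the open triangle, at 3144, lies among the shSca-1 arrays.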

How the data were processed

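The authors deposited linear intensities computed with dChip, as PM-MM model values after invariant set normalization, for 6 arrays. Log2 was taken after raising values below 1 to 1, 64 control probe sets were left out and 45037 were tested with lmFit and trended eBayes of limma 3.58.1 (R 4.3.3), adjusted by Benjamini-Hochberg over all of them, with no filter on dim probe sets and no replicate block. The precision is limited by the number of arrays. Tables were made with Python 3.11.15, and the fit was tested on simulated data. Gene symbols came from the platform annotation, in which 34945 probe sets had 1 symbol, 932 several and 9160 none. This left 18193 genes. Ly6a was found through the probe set identifier that the study's supplement gives.

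All arrays labelled shSca-1 were compared with all labelled shLuc, and again without shLuc replicate 3. Values of each array are given for members past an unadjusted p of 0.01 with a fold over 1.5 on 6 arrays or past an adjusted p of 0.05 without shLuc replicate 3, and for the 6 with the highest mean log2. Other members given by array were chosen after their values were seen. From each further list up to 4 genes past either rule are named. The members and lists were chosen with earlier results of these data known. Alternatives were floors of 16 and 64, no trend, robust variance, the methods' t-test, array centring, quantile normalization, leaving out the dimmest 40% of probe sets, the mean of all probe sets, the replicate number as a block, and each array left out in turn. Promoter windows came from the RefSeq table, the first entry of each gene.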

Additional observations from a re-analysis of the deposited data

How the results depend on the processing

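The count of members with an adjusted p under 0.05 was 0 over all 6 arrays and 1 without shLuc replicate 3 with arrays centred or quantile normalized, but 0 without it with a floor of 64, and lay between 0 and 1 when single arrays were left out. The count lower at an unadjusted p under 0.01 with a fold over 1.5, 1 as reported, was 0 with floors of 16 or 64, with the mean of all probe sets, with the methods' t-test and with no trend. It was 3 without shLuc replicate 3 with arrays centred or quantile normalized, 0 with a floor of 64, and 0 to 3 when single arrays were left out. The members' median, 0.10 as reported, was -0.20 centred, -0.22 quantile normalized and -0.17 with a floor of 64, all without shLuc replicate 3, and -0.25 to 0.17 when single arrays were left out.

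Log2 fold changes that changed sign over 6 arrays were Epas1 at 0.00 and Ankrd37 at 0.01 with arrays centred, Ankrd37 at 0.03 with quantile normalization, Slc2a3 at -0.16 with a floor of 16, and Slc2a3 at -0.18 and Epas1 at 0.03 with the mean of probe sets. Without shLuc replicate 3, the values with arrays centred, quantile normalized and with a floor of 64 were -0.20, -0.19 and -0.25 for Hk2, -0.07, -0.05 and -0.11 for Pfkl, -0.34, -0.32 and -0.38 for Pfkp, -0.25, -0.35 and -0.30 for Slc2a1, -0.31, -0.29 and -0.35 for Pdk1, -0.19, -0.25 and -0.23 for Hif1a, -0.24, -0.22 and -0.28 for Egln3, -0.26, -0.24 and -0.30 for P4ha1, -0.13, -0.10 and -0.17 for P4ha2, -0.34, -0.31 and -0.38 for Mxi1, and -0.33, -0.31 and -0.37 for Ero1l. Car9 was -0.10 centred and -0.10 quantile normalized, Bnip3 -0.01 centred and -0.05 with the floor, Aldoa -0.08 quantile normalized and -0.01 with the floor, and Ldhb 0.01 quantile normalized.

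With single arrays left out, the ranges were -0.25 to 0.51 for Hk2, -0.11 to 0.64 for Pfkl, -0.38 to 0.56 for Pfkp, -0.01 to 0.12 for Aldoa, -0.30 to 0.48 for Slc2a1, -0.32 to 0.33 for Slc2a3, -0.35 to 0.70 for Pdk1, -0.23 to 0.44 for Hif1a, -0.35 to 0.11 for Epas1, -0.28 to 2.20 for Egln3, -0.15 to 0.21 for Car9, -0.05 to 1.21 for Bnip3, -0.78 to 0.33 for Ankrd37, -1.19 to 0.16 for Ndrg1, -0.30 to 0.37 for P4ha1, -0.17 to 0.61 for P4ha2, -0.01 to 0.42 for Plod2, -0.38 to 0.39 for Mxi1 and -0.37 to 0.42 for Ero1l. The cause of these changes was not tested. With a floor of 64, the 5 members under 64 on all arrays have no difference, and that of Pdk2 is 0.00.

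Arrays with the same replicate number did not deviate together (correlations of -0.04, -0.02 and -0.03, against 0.00 to 0.03 for other pairs). With a replicate block, 0 members passed the adjusted p, 1 was lower at an unadjusted p under 0.01 with a fold over 1.5, and the median stayed at 0.10, but Txnip no longer passed these thresholds.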
